A study of Mus musculus with 28 samples.

Results

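The genes described here are the Trim ubiquitin ligases together with Sp100, Daxx and Pml of the PML nuclear bodies and the giant ubiquitin ligase Rnf213. These names were chosen with earlier results of these data known, so shares of all genes given below are background and not a test. The rule took every row whose names include a Trim gene, Sp100, Daxx, Pml or Rnf213. Of 3147 genes with RNA values, 10 met this rule, namely Trim21, Trim25, Trim30a, Trim34a, Trim14, Trim28, Sp100, Daxx, Pml and Rnf213. Of 6250 genes with ribosome footprint values, 20 did. Together these made 21 distinct genes, of which 9 were in both tables, 11 had footprints alone and Trim21 had RNA alone. Trim30a, Trim34a, Trim14 and Rnf213 share their row with another listed name (Trim30, Trim34, pub and AK217856).

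Trim proteins carry a RING domain that transfers ubiquitin, a B-box and a coiled coil, and many of them act in the sensing of viruses or in their restriction. PML bodies are small nuclear structures built around Pml protein, where Sp100 and Daxx are kept by binding to SUMO-modified proteins. Interferon is known to raise the amount of Pml and Sp100, and several Trim genes are interferon-stimulated genes, whose promoters are bound through the interferon-stimulated response element (ISRE).

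The cells were dendritic cells grown from bone marrow of female C57BL/6J mice aged 6 to 8 weeks in medium with GM-CSF at 20 ng per ml, which gives a mixed culture and not a sorted cell type. On day 9 they received LPS of E. coli K12 at 100 ng per ml, which signals through Tlr4, or a mock treatment with no stimulus. LPS and mock cells alike had their medium exchanged at time 0 for protein labelling. Poly(A) RNA was sequenced in 26 libraries of 13 groups, 2 replicates each: 0 h, and LPS and mock at 1, 2, 4, 6, 9 and 12 h. A further 2 libraries held ribosome footprints of resting cells, made after cycloheximide at 100 µg per ml. The labels do not say that the replicates were separate cultures. The p-values here reflect only how far the 2 libraries of a group lie apart, a spread that may be technical. For LPS against mock this spread was pooled over all 13 groups of a gene and moderated over genes, and not taken from the compared groups alone. Values are TPM (transcripts per 1000000), a level per transcript length in which every library has the same total. Depth is therefore unknown, and each value is relative to the other listed genes.

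Markers of the labelled cell type and of neutrophils were read. A level above 1 TPM does not check the label, because no listed gene failed a filter of 1 TPM in at least 2 libraries. Of 15 dendritic cell markers 8 had a row, and all 8 were above 1 TPM in 26 of 26 libraries, with Itgax (CD11c) at 442 to 1087 TPM. Of 10 markers of neutrophils and their precursors 7 had a row. Their summed level ran from 2492 to 11097 TPM in the 12 mock libraries (median 3775) and from 1165 to 8678 TPM in the 12 LPS libraries (median 2477), and with LPS 0 of the 7 were called higher at any time and 1 lower at 9 and at 12 h. Mpo was under 1 TPM in 1 library and the other measured neutrophil markers in 0, so these markers were present as well. The part of these cells in the results below was not tested, and in bulk RNA fewer cells of a type and less RNA per cell cannot be told apart. Markers of B, T and NK, erythroid and mast cells were not analysed here.

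After LPS, 9 of the 10 genes rose and 1, Trim28, stood lower than in mock cells. Daxx, Trim21, Trim30a and Rnf213 rose most: their highest LPS means were 13.5-fold, 16.1-fold, 14.8-fold and 15.1-fold above mock cells of the same time. Trim34a reached 8.79-fold, Trim25 5.61-fold, Pml 5.17-fold, Sp100 4.65-fold and Trim14 2.46-fold. At 1 h no gene of the group had passed the test, at 2 h 7 had, and from 4 h to 12 h the same 9 genes were higher at each time. Of these, 8 had their highest LPS mean at 4 or 6 h, while Trim25 had it at 12 h. For Trim25 the 12 h libraries (299 and 235 TPM) lay on both sides of those at 4 h (260.5 and 248). The times of the highest mean were not tested.

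**Figure D1:**
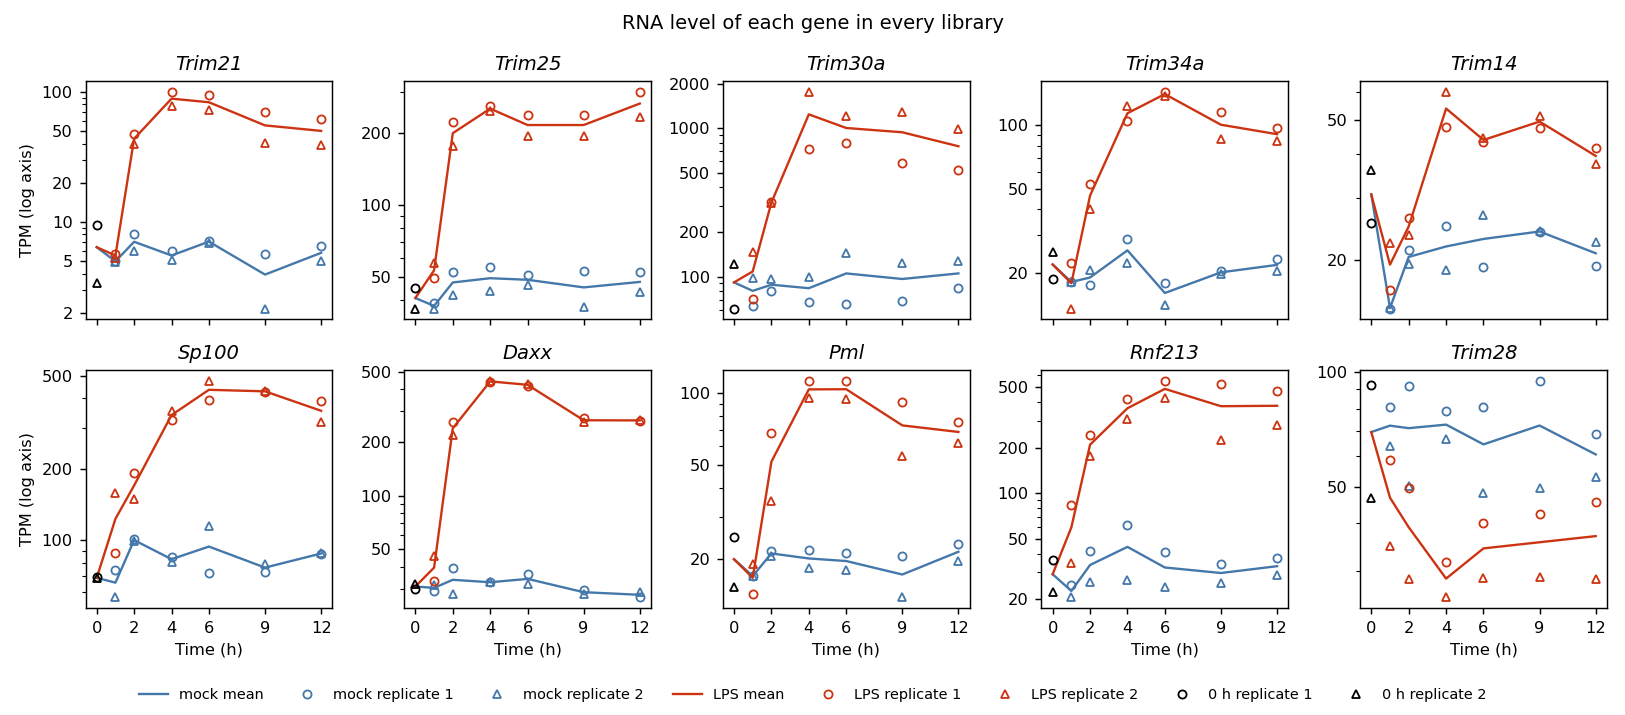
RNA level in TPM (log axis, a separate range for each gene) of the 10 genes against time in hours. Each symbol is 1 library, circles replicate 1 and triangles replicate 2, in black at 0 h, blue for mock and red for LPS; lines join group means. From 2 h on the LPS symbols of 9 genes lie above the mock symbols of the same time, and those of Trim28 lie below them at all 6 times.

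These counts stand against changes in many genes. LPS and mock were compared at each time with limma on log2(TPM + 1), with p-values adjusted over all 3147 genes by the Benjamini-Hochberg method and a threshold of 0.05. At 1 h 0 of the 10 genes were called (3 at an unadjusted p under 0.05), where 3.27% of all genes were called higher and 0.794% lower. At 2 h 7 of 10 were called higher and 0 lower, against 6.39% and 8.04% of all genes. At 4 h 9 were higher and 1 lower, against 8.74% and 29.2% of all genes. At 6, 9 and 12 h 9 were higher and 0 lower, where 11.2%, 10.1% and 10.0% of all genes were higher and 30.0%, 30.0% and 26.8% lower. The joint F test over the 6 times called 10 of 10, against 57.2% of all genes. After the rescaling described next it called 9 of 10. The share of all genes in that fit is not given here, so 57.2% is no background for it.

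The median over all genes moved with LPS, so the scale matters. The median log2 fold change of all genes was -0.05, -0.16, -0.46, -0.44, -0.44 and -0.39 at 1, 2, 4, 6, 9 and 12 h. The median of the 10 genes at those times was 0.36, 1.54, 2.33, 2.71, 2.37 and 2.23. When libraries were rescaled by the median ratio over genes, the median of all genes lay between -0.03 and -0.01 and that of the 10 was 0.38, 1.68, 2.78, 3.12, 2.80 and 2.60. The share of all genes called higher and lower then became 8.04% and 5.18% after 2 h, 14.1% and 12.9% after 4 h, 18.0% and 14.7% after 6 h, 16.1% and 12.8% after 9 h, and 16.7% and 13.9% after 12 h. Under this scale 8, 9, 9, 9 and 9 of the 10 genes were called higher at 2, 4, 6, 9 and 12 h and 0 lower.

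**Figure D2:**
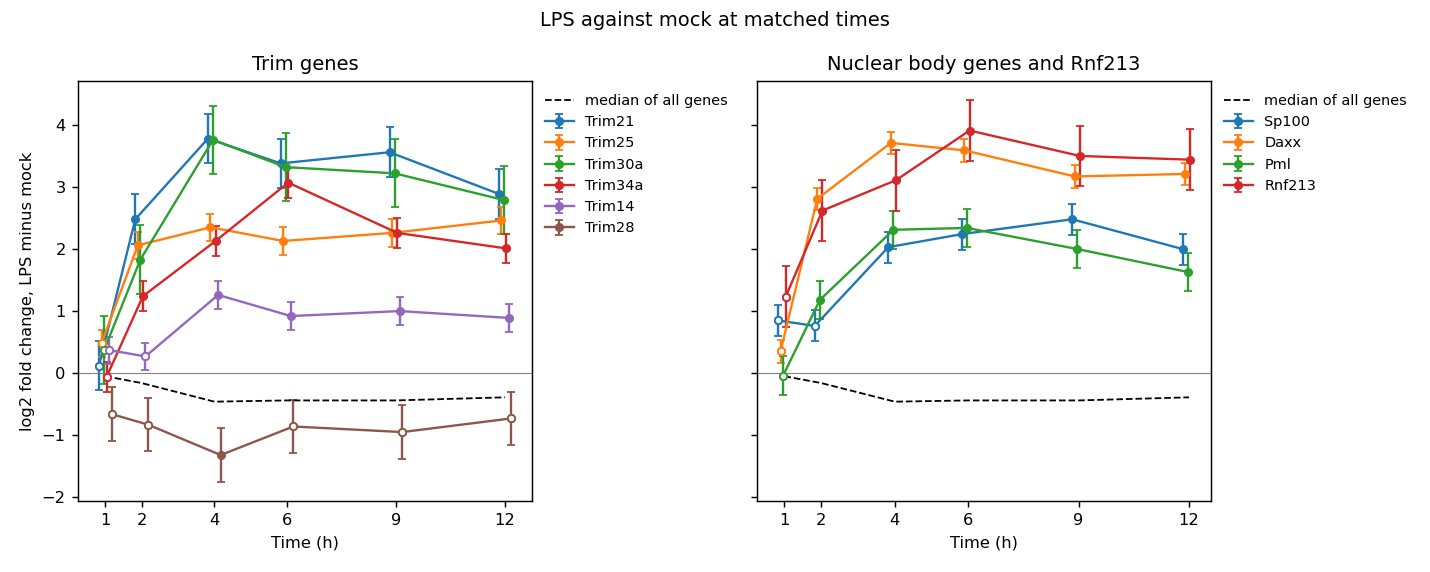
log2 fold change of LPS minus mock on the log2(TPM + 1) scale against time in hours, left for the Trim genes and right for the nuclear body genes and Rnf213. Points are estimates, bars moderated standard errors, filled symbols adjusted p under 0.05 and open symbols values that missed it; the dashed line is the median of all 3147 genes. All symbols at 1 h are open, and Trim28 is filled at 4 h alone.

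The separation between libraries was also read without a model. Both LPS libraries lay above both mock libraries for 6 of the 10 genes at 1 h, where 23.5% of all genes did so, and for 9 of 10 at each of 2, 4, 6, 9 and 12 h, where 18.8%, 15.5%, 18.7%, 15.6% and 19.1% did. Taking 2 h to 12 h together, 9 of 10 genes were separated at every time, against 8.04% of all genes. At 6 of 6 times it was 6 of 10 (Sp100, Rnf213, Daxx, Trim21, Trim25 and Trim14), against 5.12% of all genes. Trim28 was separated in the other direction at 6 of 6 times, as were 10.3% of all genes.

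Promoter windows of 300 bases, from 250 bases before the annotated start to 49 after it with the start base counted as 0, were searched in RefSeq (build GRCm38.p6) because these genes moved together. Of the 10 genes 9 matched a RefSeq promoter, as did 6 of the 11 with footprints alone, and Trim14 had none. The core of the ISRE, searched on both strands as GAAA, any 2 bases and GAAA, was in a window of 3 of the 9 genes: Trim21, Trim34a and Trim30a. Of all 32851 windows 3.44% held it, and 3.99% of all genes had it in at least 1 window. The windows of these 3 genes are shown for the position of the match, and 1 of the 3 windows of Daxx, where the core was not found, for contrast. Matches are in capitals and sequences run 5′ to 3′ on the gene's strand.
Trim21, chr7:102565433-102565732, minus strand: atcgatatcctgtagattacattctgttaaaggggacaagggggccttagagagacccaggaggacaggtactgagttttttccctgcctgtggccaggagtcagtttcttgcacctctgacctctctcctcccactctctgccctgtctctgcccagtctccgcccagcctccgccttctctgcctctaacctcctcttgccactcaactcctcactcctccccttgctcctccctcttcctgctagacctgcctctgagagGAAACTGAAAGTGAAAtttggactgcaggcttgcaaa
Trim34a, chr7:104244207-104244506, plus strand: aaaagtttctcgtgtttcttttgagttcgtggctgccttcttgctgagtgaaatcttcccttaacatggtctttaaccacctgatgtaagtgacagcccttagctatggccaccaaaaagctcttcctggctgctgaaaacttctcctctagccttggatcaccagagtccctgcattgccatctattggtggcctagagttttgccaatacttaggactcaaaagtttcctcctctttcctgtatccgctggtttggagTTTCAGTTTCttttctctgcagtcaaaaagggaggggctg
Trim30a, chr7:104465144-104465443, minus strand: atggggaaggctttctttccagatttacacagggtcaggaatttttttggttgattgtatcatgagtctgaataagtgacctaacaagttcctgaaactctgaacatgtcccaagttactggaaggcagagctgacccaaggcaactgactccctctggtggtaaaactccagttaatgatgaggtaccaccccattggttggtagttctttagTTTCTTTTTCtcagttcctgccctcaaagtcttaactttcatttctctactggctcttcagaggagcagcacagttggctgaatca
Daxx, chr17:33909195-33909494, plus strand: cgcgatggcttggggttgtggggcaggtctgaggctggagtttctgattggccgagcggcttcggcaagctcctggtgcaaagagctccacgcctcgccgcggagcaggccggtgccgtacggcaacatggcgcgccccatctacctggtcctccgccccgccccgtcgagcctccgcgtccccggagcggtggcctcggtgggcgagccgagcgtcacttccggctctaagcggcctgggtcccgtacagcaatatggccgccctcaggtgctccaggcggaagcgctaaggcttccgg
In Trim21 2 matches overlap, at bases 13 to 22 and 19 to 28 after the start on the gene's strand. In Trim34a the match lies at bases 10 to 19 after the start and in Trim30a at bases -36 to -27, both on the opposite strand, so that they read as the reverse complement of the core.

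Relatives of these genes and Trim26 held the core too. Trim30a has another annotated start, and Trim30d and Trim12a lie in the same run of Trim genes on chromosome 7. The matches of these windows are shown with 10 bases on each side to set them beside each other.
Trim30a, other start, match in chr7:104446076-104446375, minus strand: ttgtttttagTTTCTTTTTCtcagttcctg
Trim30d, match in chr7:104507800-104508099, minus strand: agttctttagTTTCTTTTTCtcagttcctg
Trim12a, match in chr7:104315446-104315745, minus strand: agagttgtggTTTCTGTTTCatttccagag
Trim26, 2 overlapping matches in chr17:36836896-36837195, plus strand: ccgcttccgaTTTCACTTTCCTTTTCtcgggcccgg
The 30 bases of Trim30d are the same as those around the match in the first Trim30a window above. In the other Trim30a window the match lies at bases 2 to 11 after the start, in Trim30d at -41 to -32 and in Trim12a at 10 to 19.

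The other motifs were rarer in these windows. The gamma-activated site, TTCNNNGAA, was in none of the windows of the 15 matched genes, against 8.3% of all windows. A kappaB core, GGGA, any base, TT, any base and CC, was in 1 (Trim26), against 1.2% of all windows. The ISRE core was not found in the windows of Sp100, Rnf213, Daxx, Pml, Trim25 and Trim28. A match or its absence describes these letters in this window and not the binding of a factor, and no binding was measured.

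**Figure D3:**
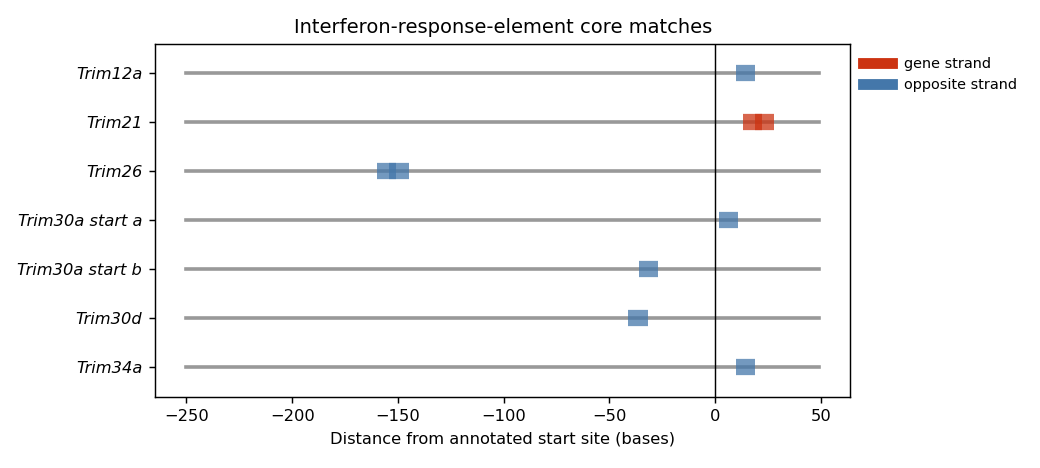
Position of ISRE core matches in the promoter windows that held one. The horizontal axis is the distance in bases from the annotated start site; grey lines are the windows, red boxes matches on the gene's strand and blue boxes matches on the opposite strand. The matches of 6 windows lie between bases -41 and 28, and those of Trim26 at bases -160 to -145.

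Trim21 is the cytosolic antibody receptor, which binds the constant part of immunoglobulin on incoming viruses and marks them for the proteasome. It was the lowest of the 10 genes before stimulation, at 9.39 and 3.36 TPM at 0 h, and only 0.953% of all genes had a lower mean there. Mock libraries ran from 2.15 to 8.10 TPM with a median of 5.82. LPS libraries held 5.70 and 5.30 TPM after 1 h, 47.7 and 39.4 after 2 h, 99.9 and 77.3 after 4 h, 93.8 and 72.4 after 6 h, 70.1 and 40.2 after 9 h and finally 61.3 and 38.8 after 12 h. From 2 h on every LPS library was thus far above every mock library, the lowest LPS value being that of replicate 2 at 12 h. The log2 fold change was 0.12 ± 0.40 (SE) at 1 h (adjusted p = 0.89), 2.48 ± 0.40 at 2 h (adjusted p = 0.00033) and 3.78 ± 0.40 at 4 h (adjusted p = 1.8e-06). At 12 h it was 2.89 ± 0.40 (adjusted p = 3e-05), and the LPS mean had come down to 56.5% of its highest. Replicate 1 was above replicate 2 in 13 of 13 groups.

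Trim25 adds ubiquitin chains to the RNA sensor RIG-I, which lets it signal, and also acts as a ligase for the ubiquitin-like protein Isg15. Mock libraries held 36.8 to 55.0 TPM with a median of 44.9. LPS libraries held 49.5 and 57.0 TPM after 1 h, 223 and 178 after 2 h, 260.5 and 248 after 4 h, 239 and 195 after 6 h, again 239 and 195 after 9 h and finally 299 and 235 after 12 h. The LPS and mock libraries did not overlap at any of the 6 times. By 2 h the difference between the arms' means had reached 69.8% of that at its highest LPS mean, the largest such share of the 9 rising genes. LPS against mock gave a log2 fold change of 0.48 ± 0.22 at 1 h (adjusted p = 0.25), 2.06 ± 0.22 at 2 h (adjusted p = 4.7e-06) and 2.46 ± 0.22 at 12 h (adjusted p = 2.3e-07).

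Trim30a, a mouse Trim gene known to dampen NF-kappaB signalling by removing the adaptors Tab2 and Tab3, had the highest mean RNA level of the 10 genes at 0 h and in LPS cells from 2 h to 12 h, while the mean of Sp100 was above it after 1 h with LPS (123 against 109 TPM). It stood at 61.0 and 122 TPM at 0 h, and mock libraries ran from 63.2 to 145 TPM with a median of 90.3. LPS libraries held 71.0 and 146 TPM after 1 h, 319 and 313 after 2 h, 722 and 1759 after 4 h, 793 and 1216 after 6 h, 585 and 1294 after 9 h and finally 522 and 991 after 12 h. The arms overlapped at 1 h and not later, but replicates were far apart: replicate 2 was above replicate 1 in 12 of 13 groups. In the fit, LPS cells differed from mock by a log2 fold change of 1.83 ± 0.55 at 2 h (adjusted p = 0.032), 3.76 ± 0.55 at 4 h (adjusted p = 5.2e-05) and 2.79 ± 0.55 at 12 h (adjusted p = 0.00077). The call at 2 h was lost when any 1 of the 4 libraries compared was left out, with adjusted p from 0.097 to 0.16. At 6 h with LPS the mean of 1005 ± 299 TPM (SD, n = 2) was above that of 94.4% of all genes. Its relatives Trim30c and Trim30d lie beside Trim30a. How RSEM divided reads shared between them was not examined here, so the level of Trim30a is uncertain to that extent.

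Trim34a belongs to the same run of genes on chromosome 7, where Trim6, Trim5 and Trim12a are neighbours and Trim34b is a close copy, so that its level carries the same uncertainty. Mock libraries held 14.1 to 28.9 TPM with a median of 20.0. LPS libraries held 22.1 and 13.5 TPM after 1 h, 52.5 and 40.2 after 2 h, 105 and 123 after 4 h, 144 and 137 after 6 h, 115 and 86.1 after 9 h and finally 97.3 and 84.1 after 12 h. The difference at 2 h was 22.0% of that at 6 h. As log2 fold change, the difference was -0.06 ± 0.24 at 1 h (adjusted p = 0.92), 1.24 ± 0.24 at 2 h (adjusted p = 0.0018) and 3.07 ± 0.24 at 6 h (adjusted p = 3.8e-08).

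Trim14 lacks the RING domain and acts as an adaptor on mitochondria beside Mavs. It had the smallest rise of the 9. It stood at 25.5 and 36.0 TPM at 0 h, and mock libraries ran from 14.6 to 26.9 TPM with a median of 20.5. LPS libraries held 16.5 and 22.4 TPM after 1 h, 26.3 and 23.6 after 2 h, 47.7 and 60.1 after 4 h, 43.4 and 44.4 after 6 h, 47.5 and 51.5 after 9 h and finally 41.6 and 37.5 after 12 h. At 1 and 2 h all 4 LPS libraries were above the mock libraries of their time but below the higher 0 h library. On the log2 scale LPS minus mock was 0.27 ± 0.22 at 2 h (adjusted p = 0.49), 1.26 ± 0.22 at 4 h (adjusted p = 0.00027) and 0.92 ± 0.22 at 6 h (adjusted p = 0.0031). The 6 h call was lost without mock replicate 1, where the difference was 0.69 (adjusted p = 0.05), and when the fit held the compared groups alone (adjusted p = 0.053), as was the 9 h call in that fit (adjusted p = 0.064). Of the 10 genes it was the 1 with an unadjusted p under 0.05 for mock against 0 h, at -0.54 ± 0.17 (adjusted p = 1), and 0 of 10 were called in that comparison, against 0.0318% of all genes.

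Trim28 (also called Kap1), the corepressor that KRAB zinc finger proteins recruit to silence retroelements, moved the other way. It stood at 92.5 and 46.6 TPM at 0 h, and mock libraries ran from 48.1 to 95.0 TPM with a median of 67.7. LPS libraries held 58.7 and 34.8 TPM after 1 h, 49.6 and 28.6 after 2 h, 31.7 and 25.6 after 4 h, 40.0 and 28.8 after 6 h, 42.4 and 29.0 after 9 h and finally 45.6 and 28.5 after 12 h. Both LPS libraries were below both mock libraries at each of the 6 times, and replicate 1 was above replicate 2 in 13 of 13 groups. The log2 fold change was -1.32 ± 0.43 at 4 h (adjusted p = 0.023). At the other times it was -0.66, -0.83, -0.86, -0.95 and -0.73 at 1, 2, 6, 9 and 12 h, with adjusted p of 0.44, 0.23, 0.12, 0.089 and 0.20. The 4 h call did not hold with median-ratio rescaling (-0.87, adjusted p = 0.13), with quantile normalization (-0.83, adjusted p = 0.18), and without mock replicate 1 (-1.2, adjusted p = 0.12), mock replicate 2 (-1.43, adjusted p = 0.059) or LPS replicate 2 (-1.17, adjusted p = 0.13). When the replicate number was added to the limma fit as a block, Trim28 was called lower at all 6 times. Adjusted p then ran from 1.9e-05 at 4 h to 0.027 at 1 h. Under that block 6.10%, 16.7%, 44.9%, 42.9%, 43.3% and 39.1% of all genes were called lower at 1, 2, 4, 6, 9 and 12 h. In the fit reported, the median of all genes at 4 h was -0.46, and 29.2% of them were called lower.

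Daxx, which deposits a histone variant at silent chromatin together with Atrx and is recruited to PML bodies through SUMO, was the most tightly measured of the rising genes. It stood at 30.0 and 31.8 TPM at 0 h, and mock libraries ran from 26.9 to 39.4 TPM with a median of 30.4. LPS libraries held 33.2 and 45.7 TPM after 1 h, 259 and 220.2 after 2 h, 435 and 445 after 4 h, 415 and 427 after 6 h, 273 and 259 after 9 h and finally 264 and 267 after 12 h. Replicates lay close together from 4 h on, and the levels at 9 and 12 h were below those at 4 and 6 h in each replicate while far above mock. LPS against mock gave a log2 fold change of 0.35 ± 0.18 at 1 h (adjusted p = 0.32), 2.81 ± 0.18 at 2 h (adjusted p = 1.1e-08), 3.71 ± 0.18 at 4 h (adjusted p = 2.4e-10) and 3.21 ± 0.18 at 12 h (adjusted p = 1.9e-09). Its mean was above that of 19.5% of all genes at 0 h and of 88.1% at 6 h with LPS.

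Sp100 gives PML bodies their other name of Sp100 domains and restricts the genomes of DNA viruses that reach the nucleus. It stood at 69.3 and 68.5 TPM at 0 h, and mock libraries ran from 57.0 to 115 TPM with a median of 82.8. LPS libraries held 87.8 and 158 TPM after 1 h, 192 and 149 after 2 h, 325 and 355 after 4 h, 394 and 477 after 6 h, 426 and 432 after 9 h and finally 391 and 318 after 12 h. The arms did not overlap at any of the 6 times, and the level was held to 9 h, with 81.3% of its highest mean left at 12 h. In the fit, LPS cells differed from mock by a log2 fold change of 0.85 ± 0.25 at 1 h (adjusted p = 0.068) and 0.76 ± 0.25 at 2 h (adjusted p = 0.056), just short of the threshold, then 2.03 ± 0.25 at 4 h (adjusted p = 1.3e-05) and 2.48 ± 0.25 at 9 h (adjusted p = 1.3e-06). After median-ratio rescaling the 2 h value was 0.91 (adjusted p = 0.03), and without LPS replicate 1 the 1 h value was 1.27 (adjusted p = 0.006).

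Pml, the scaffold of the bodies and itself a Trim-type protein, stood at 24.7 and 15.2 TPM at 0 h. Mock libraries ran from 13.8 to 23.2 TPM with a median of 20.1. LPS libraries held 14.3 and 19.0 TPM after 1 h, 67.7 and 35.1 after 2 h, 112 and 95.4 after 4 h, 113 and 94.7 after 6 h, 92.0 and 54.2 after 9 h and finally 75.8 and 61.4 after 12 h. The arms overlapped at 1 h and were separate from 2 h on, and replicate 1 was above replicate 2 in 12 of 13 groups. As log2 fold change, the difference was -0.04 ± 0.31 at 1 h (adjusted p = 0.96), 1.18 ± 0.31 at 2 h (adjusted p = 0.017), 2.34 ± 0.31 at 6 h (adjusted p = 1.8e-05) and 1.63 ± 0.31 at 12 h (adjusted p = 0.00066). The 2 h call rests on few libraries: it was lost without LPS replicate 1 (0.71, adjusted p = 0.25), without mock replicate 1 or 2 (adjusted p of 0.072 and 0.097), and when only the compared groups were fitted (adjusted p = 0.10).

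Rnf213 is a giant ubiquitin ligase with a motor domain, known to coat cytosolic bacteria by attaching ubiquitin to their lipopolysaccharide. It stood at 36.2 and 22.2 TPM at 0 h, and mock libraries ran from 20.6 to 61.9 TPM with a median of 27.8. LPS libraries held 84.2 and 34.8 TPM after 1 h, 243 and 175 after 2 h, 419 and 308 after 4 h, 554 and 422 after 6 h, 525 and 225 after 9 h and finally 471 and 284 after 12 h. Replicate 1 was above replicate 2 in 13 of 13 groups, in mock and LPS cells alike, and the arms did not overlap at any time. On the log2 scale LPS minus mock was 1.23 ± 0.49 at 1 h (adjusted p = 0.18), the largest of the 10 genes at that time but below the threshold, 2.62 ± 0.49 at 2 h (adjusted p = 0.0013), 3.91 ± 0.49 at 6 h (adjusted p = 8.7e-06) and 3.44 ± 0.49 at 12 h (adjusted p = 3.9e-05).

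The order of the genes by level changed with LPS. At 0 h the means ran from Trim30a (91.5 ± 43.2 TPM, SD, n = 2), Trim28 (69.6 ± 32.5) and Sp100 (68.9 ± 0.582), whose libraries overlapped in turn, over Trim25 (40.7 ± 5.59) to an overlapping run of Daxx, Trim14, Rnf213, Trim34a and Pml (30.9 to 20.0 TPM), with Trim21 lowest at 6.38 ± 4.26. At 6 h with LPS, Trim30a led, followed by Rnf213 (488 ± 93.8), Sp100 (435 ± 59.2) and Daxx (421 ± 8.22), whose neighbours in this order overlapped. Trim25 (217 ± 31.6), Trim34a (140.5 ± 5.14), Pml (104 ± 12.6), Trim21 (83.1 ± 15.2), Trim14 (43.9 ± 0.654) and Trim28 (34.4 ± 7.87) came next, each with libraries apart from the next. Trim28 thus went from rank 2 of 10 at 0 h to the lowest.

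Timing was read from 1 contrast per gene, each tested against 0 and not against the other genes. The difference between arms was compared late (mean of 6, 9 and 12 h) against early (mean of 1 and 2 h), and it was larger late for 9 of the 10, where 8.17% of all genes were called higher. The median over the 10 was 1.56, against -0.32 over all genes. The increase was 2.01 ± 0.50 for Trim30a (adjusted p = 0.0063) and 1.86 ± 0.22 for Trim34a (adjusted p = 1.1e-05), and 1.01 ± 0.20 for Trim25 (adjusted p = 0.0011). For Trim28 it was -0.10 ± 0.39 (adjusted p = 0.87). The increase of Trim14 (0.62 ± 0.20, adjusted p = 0.029) lost its call when any of 7 single libraries was left out, with adjusted p from 0.053 to 0.074. These were mock replicate 1 at 1, 2, 6 and 12 h, mock replicate 2 at 1 h, LPS replicate 1 at 1 h and LPS replicate 2 at 2 h.

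A decline after the middle times was not called for any of them. For the difference between arms at 9 and 12 h against 4 and 6 h, limma called 0 of 10 (1 at an unadjusted p under 0.05), against 3.97% of all genes. Daxx had the smallest p, at -0.46 ± 0.18 (adjusted p = 0.18). Trim30a (-0.54 ± 0.55) and Pml (-0.51 ± 0.31) had larger but less certain values, while Sp100 and Trim25 were at 0.11 ± 0.25 and 0.12 ± 0.22. The share of the rise made by 2 h was 50.5% for Daxx, 44.0% for Trim21, 38.4% for Rnf213 and 36.2% for Pml. It was 20.8% for Sp100, 19.7% for Trim30a and 14.0% for Trim14. These shares were not tested against each other.

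Likeness of pattern was described by Pearson's r of log2(TPM + 1) over the 13 group means, which share their libraries, so no test is given. Among the 10 genes the closest pair was Daxx and Trim21 (r = 0.994) and the most opposed was Rnf213 and Trim28 (r = -0.952). Pairs of the 8 genes other than Trim14 and Trim28 all had r of at least 0.947, while Trim14 reached 0.831 to 0.901 with them. Among all other genes the most alike were Cmpk2 (0.995), Parp9 (0.994) and Rasa4 (0.992) for Daxx, and Parp9 (0.991), Cmpk2 (0.987) and Irgm1 (0.987) for Trim21. For Trim25 they were Rasa4, Stat2 (both 0.992) and Cmpk2 (0.991), and for Rnf213 Ifit2 (0.994), Cmpk2 (0.993) and Rasa4 (0.992). For Trim30a they were Pyhin1 (0.993), Ddx58 (0.992) and Parp12 (0.990), and for Sp100 Oas3 (0.989), Iigp1 (listed as IIGP;Iigp1, 0.988) and Tapbp (0.987).

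Partner genes of the nuclear bodies were read from lists drawn up from general knowledge. Of 23 listed partners of PML bodies and of the histone chaperones 6 had a row, and 0 of these were called lower at any time. Sp140 was called higher at all 6 times, Sp110 at each time from 2 h to 12 h, Morc3 at 4, 6, 9 and 12 h but not at 2 h (0.27 ± 0.20, adjusted p = 0.44), and Eif4e, a further member of the list named here for that reason, at 2 h alone (1.02 ± 0.25, adjusted p = 0.0093). At 6 h the relatives of Sp100, Sp140 and Sp110, had risen by 3.11 ± 0.22 and 2.78 ± 0.30 on the log2 scale, and Morc3, a protein that joins PML bodies, by 1.37 ± 0.20. Usp7, an enzyme that removes ubiquitin, was at -0.34 ± 0.46 and did not pass the test. The background at 6 h is the 11.2% higher and 30.0% lower of all genes given above.

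The pathways of single ligases gave different counts. Of 10 measured genes of RIG-I signalling, in which Trim25 acts, 7 rose at 6 h and 0 fell, led by the RNA sensors Ifih1 (5.46 ± 0.28), Dhx58 (4.09 ± 0.29) and Ddx58, which encodes RIG-I itself (3.69 ± 0.20), and by Tank (2.67 ± 0.35). At 4 h 6 of the list were higher and 2 lower, where 8.74% and 29.2% of all genes were. The 2 lower were Mavs (-1.59 ± 0.53) and Tmem173 (-1.55 ± 0.35). Tmem173 was also called lower at 9 h (-1.23 ± 0.35) and at 12 h (-0.91 ± 0.35), where 6 and 7 of the list were higher. Of 7 measured genes of the pathway downstream of Trim21, 1 rose at 6 h (the kinase Ikbkb, 0.81 ± 0.19) and 1 fell (Ufd1l, a cofactor of the unfoldase Vcp, by 0.57 ± 0.20), with a median of -0.13. All 3 measured enzymes and modifiers of the Isg15 pathway rose from 4 h on: Isg15 by 7.01 ± 0.33, its activating enzyme Uba7 by 3.50 ± 0.32 and its conjugating enzyme Ube2l6 by 2.50 ± 0.33 at 6 h.

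Other ubiquitin ligases served for comparison. Of 17 measured E3 ligases outside the group, 2 rose at 6 h (Rnf114, 2.37 ± 0.47, and Dtx3l, 2.33 ± 0.52) and 2 fell (Stub1, by 1.29 ± 0.28, and Rnf40, by 0.44 ± 0.16), and the median was -0.19. A reference list of type I interferon response genes had 24 measured, all 24 higher at 6 h with a median of 4.10. Of the 24, 19 were already called higher at 2 h, and 6 at 1 h.

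**Figure D4:**
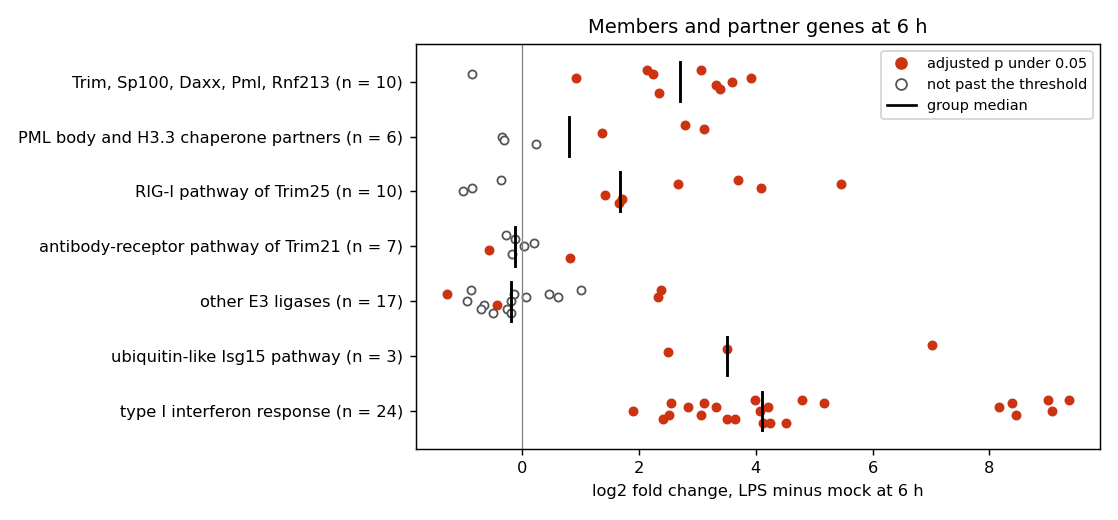
log2 fold change of LPS minus mock at 6 h on the log2(TPM + 1) scale for the 10 genes and 6 lists of partner and reference genes, 1 point per gene. Red points passed an adjusted p of 0.05, open points did not, and black bars are medians. The bar of the 10 genes stands at 2.71, between the RIG-I list and the interferon list (4.10), and that of the other E3 ligases at -0.19.

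Ribosome footprints, fragments of mRNA protected by translating ribosomes, were measured in resting cells only. Of the 20 genes with footprint values Trim28 was highest at 64.0 and 64.5 TPM, followed by Trim35 at 41.5 and 37.7, Trim25 at 42.9 and 34.7, Trim30a at 29.7 and 31.7, Sp100 at 27.3 and 31.8, and Trim14 at 25.4 and 28.4. The median of the 20 was 13.7 TPM, against 29.0 TPM for all 6250 genes. At the low end stood Trim34a at 4.20 and 5.60 TPM, Trim56 at 7.09 and 4.95, Trim3 at 7.15 and 5.15, Trim33 at 6.44 and 7.58, and Daxx at 8.07 and 7.80. Trim33 regulates transcription downstream of TGF-beta, and Trim56 is an antiviral ligase. Rnf213 had 21.4 and 17.7 TPM and Pml 10.1 and 11.1. The 11 genes with footprints alone ran from 6.02 TPM (Trim56) to 39.6 TPM (Trim35) by their means, and their median was 10.1 TPM. Among these, Trim8 had 18.0 and 17.9 TPM, Trim12a (listed with Trim12 and Trim5) 15.6 and 14.0, Trim27 12.9 and 16.5, and Trim30d 13.1 and 12.3. The other 3 were Trim26 at 11.2 and 9.00, Trim36 at 8.95 and 10.6, and Trim47 at 9.83 and 7.52. Their RNA was not analysed here.

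Footprints were set against 0 h RNA for the 9 genes in both tables, each library centred on its median over 2896 shared genes. RNA and footprint reads were aligned with different programs, and what this does to genes with close copies, such as Trim34a, was not tested. Daxx and Trim34a were lower in footprints than in RNA, by log2 differences of -0.99 ± 0.24 (adjusted p = 0.033) and -1.10 ± 0.30 (adjusted p = 0.042), and 0 were higher, where 13.6% of all genes were called lower and 14.1% higher. Trim28, Trim25 and Trim14 lay above, at 0.82 ± 0.33, 0.78 ± 0.24 and 0.68 ± 0.28, with adjusted p of 0.10, 0.057 and 0.11. Without centring these differences were -0.03, -0.07 and -0.17. Trim30a (-0.61 ± 0.38), Sp100 (-0.35 ± 0.22), Rnf213 (0.33 ± 0.29) and Pml (0.03 ± 0.28) were not called either. Without centring, limma called Trim30a (-1.46, adjusted p = 0.021) and Sp100 (-1.2, adjusted p = 0.009) lower. Rnf213 (-0.52) and Pml (-0.82) stayed uncalled. Dropping the centring moves every gene by the same amount, and whether the calls of Trim30a and Sp100 only follow this shift was not tested. The share of all genes called without centring is not given here, so 13.6% is no background for them. The count of 2 depends on single libraries: it was 0 without footprint replicate 1 or 2, 8 (4 higher and 4 lower) without 0 h RNA replicate 1, and 5 (3 higher and 2 lower) without 0 h RNA replicate 2. The calls over all 2896 genes moved alike, to 8.32% and 8.36% without a footprint library and to 76.1% and 59.7% without RNA replicate 1 or 2. Without footprint replicate 1 or 2 the difference itself was -1.04 and -0.94 for Daxx and -0.95 and -1.24 for Trim34a. The call of Trim34a was also lost with a pseudocount of 5 (-0.64, adjusted p = 0.08), and without centring the values were -1.84 for Daxx and -1.95 for Trim34a.

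**Figure D5:**
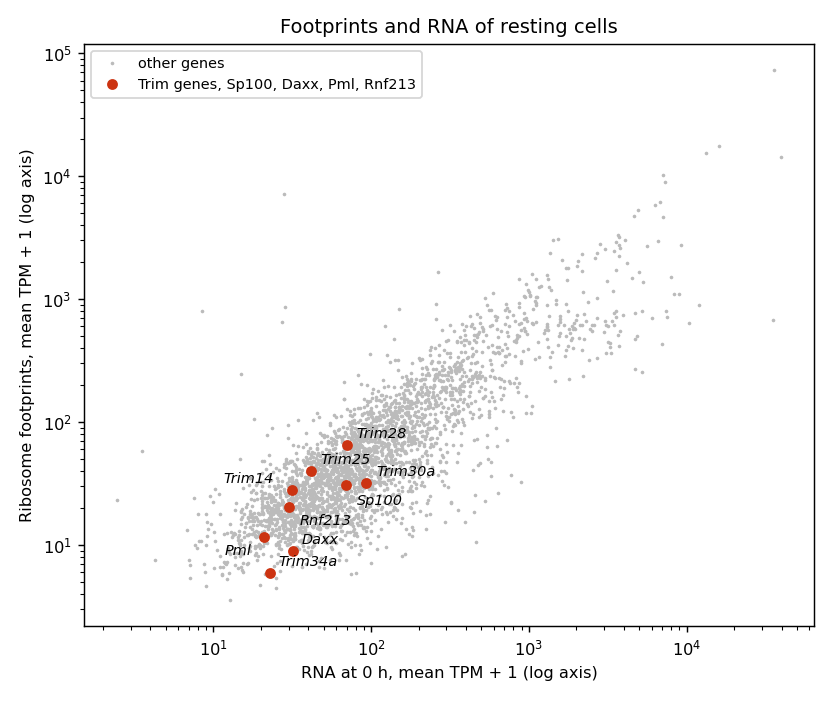
Mean footprint level of resting cells against mean RNA level at 0 h, both as TPM + 1 on log axes, 1 point per gene found in both tables. Red points are the 9 named genes and grey points the other shared genes. Daxx and Trim34a lie at the lower edge of the cloud at their RNA level, with mean footprints of 7.93 and 4.90 TPM.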

How the data were processed

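RNA and footprint values were deposited by the authors in TPM, and each column sums to 1000000. RNA reads were aligned with Bowtie 0.12.7 to mm9 and quantified with RSEM 1.2.3, while Bowtie2 and TopHat2 served for the footprints, per the submitters' processing notes. The table and titles say 4 h for samples whose description names hour 5, and 4 h was used. The 0 h columns, listed under both arm names and identical, were used once. TPM holds no depth, so precision rests on the 2 libraries of each group.

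The filter of 1 TPM in at least 2 libraries removed none of the 3147 genes. Values were modelled as log2(TPM + 1), a scale that understates changes of low genes, with limma 3.58.1 in R 4.3.3: 13 group means, 13 residual degrees of freedom, a variance trend and Benjamini-Hochberg adjustment over all genes. Errors are moderated standard errors for fold changes and standard deviations for TPM. Footprints and RNA were joined on names for 2896 genes. The settings varied were the pseudocount (0.1 or 5), the filter (10 TPM or none), median-ratio rescaling, quantile normalization, a replicate block, the compared groups alone and leaving out each library.

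All genes of the name rule are reported. Listed genes are named from the 4 largest absolute changes of a list at 6 h and from those called lower at 6 h, and not all of them are named. Genes called lower at other times alone are named for the RIG-I list only. The interferon list is given by counts and its median. Patterns were compared for Trim21, Trim25, Trim30a, Sp100, Daxx and Rnf213 with the 3 most alike genes. The genes and lists were chosen with earlier results of these data known. Promoter windows came from RefSeq (GRCm38.p6), a later build than the authors used; no coordinates of the deposited files were used. 1 partner list is not reported here.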

Additional observations from a re-analysis of the deposited data

Results flagged for a closer look

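The difference between LPS and mock cells was not the same at all times for 9 of the 10 genes. It was larger at 6, 9 and 12 h than at 1 and 2 h in limma's test of the change itself, on the log2(TPM + 1) scale with Benjamini-Hochberg adjustment over all genes. The change was 2.01 ± 0.50 (SE) for Trim30a, 1.97 ± 0.36 for Trim21, 1.86 ± 0.22 for Trim34a, 1.74 ± 0.16 for Daxx and 1.69 ± 0.45 for Rnf213. It was 1.43 ± 0.23 for Sp100, 1.42 ± 0.29 for Pml, 1.01 ± 0.20 for Trim25 and 0.62 ± 0.20 for Trim14. Adjusted p ran from 1e-06 for Daxx to 0.029 for Trim14, and the same test called 8.17% of all genes in this direction. Groups held 2 libraries, too few to look for single outlying libraries.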

How the results depend on the processing

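The count of genes called at 1 h was 0 in the fit reported and 4 (3 higher, 1 lower) with the replicate block, under which 11.2% of all genes were called higher and 6.10% lower at 1 h, and it ran from 0 to 1 when single libraries were left out. The footprint count was 1 with a pseudocount of 5, 4 without centring, and from 0 to 8 when single libraries were left out, where a lone library was assumed to vary like the other group. The share of all genes called with a pseudocount of 5 or without centring is not given here, so the counts of 1 and 4 have no background. The 4 genes called without centring were all lower. Dropping the centring moves every gene by the same amount, as from -0.99 to -1.84 for Daxx and from 0.78 to -0.07 for Trim25. Whether the added calls only follow this shift was not tested. The replicate block ended no call and added 9 for single genes, at 1 h (Sp100, Rnf213, Trim25, Trim28), 2 h (Sp100, Trim28) and 6, 9 and 12 h (Trim28). Trim28 was then lower at all 6 times, with adjusted p from 1.9e-05 to 0.027. The samples were not treated as paired, because titles only number the replicates. Differences between replicates correlated positively in every pair of groups, at 0.05 to 0.834, and at 0.227 to 0.685 between the arms of 1 time. A fit without the block counts any such shared difference as spread. The standard error of Trim28 at 6 h was 0.43 in the fit reported and 0.19 with the block. No value changed direction while called. The cause of these changes was not tested. A minimum of 10 TPM, no filter and a pseudocount of 0.1 changed no call. Of 776 values without 1 library, 743 kept their side of the threshold, 22 lost it and 11 gained it. With depth unknown, no counting error is given.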
